A study of Homo sapiens with 12 samples.

Results

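Homologous recombination repairs broken DNA by copying an intact template, and it works together with a checkpoint that senses the damage and holds the cell cycle. BRCA1 with its partner BARD1 acts early in this repair, PALB2 bridges BRCA1 to BRCA2, and BRCA2 acts on the single-stranded DNA at the break. The kinases ATM and ATR sense broken and single-stranded DNA, TOPBP1 activates ATR, CHEK1 carries its signal to the cell cycle, and FANCD2 marks DNA crosslinks for repair. RBMX is an RNA-binding protein that can be found in the nucleus and in the cytoplasm. It has been tied to BRCA2 expression and to resistance to DNA damage.

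These 9 genes, BRCA1, BARD1, PALB2, BRCA2, FANCD2, ATM, ATR, TOPBP1 and CHEK1, were taken by symbol from the 25268 genes of the series, and all 9 were listed. HEK293, an established human embryonic kidney line, was transiently transfected with 2 µg of the plasmid pCMV6-HIS-HA-RBMX, in which a viral promoter drives RBMX with HIS and HA tags. The control cells, called wild type in the labels, received the mock empty vector. All cells were treated with 10 µg/ml cycloheximide and lysed, and nuclei were spun out before the lysate went onto a sucrose gradient. Polysomal RNA came from the heavy fractions and total RNA from 20% of every fraction, so that total RNA here lacks the nuclei. Each vector had 3 biological replicates in each fraction, which gave 12 libraries.

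The level of each gene was its FPKM, the reading of sequenced fragments corrected for transcript length and for the size of the library, which lets different genes be compared within a library. RBMX itself, summed over the cell's own gene and any plasmid reads assigned to it, had 133 ± 22.2 FPKM in control and 1755 ± 307 FPKM in RBMX total RNA, and 127 ± 34.3 and 1189 ± 130 FPKM in polysomal RNA (SD, n = 3 each), with no overlap. The 7 markers of HEK293 cells were present, while markers of leukocytes, endothelium, hepatocytes and muscle averaged at most 0.840 FPKM. COL1A1, chosen as a fibroblast marker, averaged 5.77 FPKM and COL3A1 0.033. The library total summed to 817528 to 1903320 FPKM, of which small RNA genes took 40.6% to 72.9%, and read numbers are unknown. Control replicate 3 stood apart in both fractions. Its Spearman correlation with the other control libraries was 0.976 to 0.983 over 14168 genes without small RNAs, against 0.997 to 0.998 between control replicates 1 and 2. Its mean log2(FPKM + 1) of 16 proliferation genes was 5.90 in total and 5.80 in polysomal RNA, against 6.09 to 6.36 in the other libraries. The library at 6.09 was RBMX polysomal replicate 2. Its Spearman correlation with RBMX polysomal replicates 1 and 3 was 0.990 and 0.982, against 0.992 between those. The main values and calls that moved without control replicate 3 are given both ways, and values without RBMX replicate 2 for fewer results.

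The 9 genes formed a lower and a higher tier of levels, and each kept its tier in all 12 libraries. BRCA2, with a mean of 2.19 FPKM over the 12 libraries, and ATR, with 2.79 FPKM, were the lowest, above 15.8% and 19.4% of the 14676 genes tested. ATM followed with 6.18 FPKM, BARD1 with 8.86 and PALB2 with 9.31. The higher tier held BRCA1 with 22.0 FPKM, CHEK1 with 22.4, TOPBP1 with 25.1 and FANCD2 with 27.8, which was above 72.0% of genes. BRCA2, ATR and ATM did not overlap each other or the next gene over the 12 libraries, although ATM reached 7.35 and BARD1 went down to 7.37 FPKM. Of the other neighbours, BARD1 and PALB2 overlapped in their ranges, as did BRCA1, CHEK1, TOPBP1 and FANCD2. ATR varied least, by 1.13 times between its lowest and highest library, and BRCA2 varied most, by 1.53 times.

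**Figure D1:**
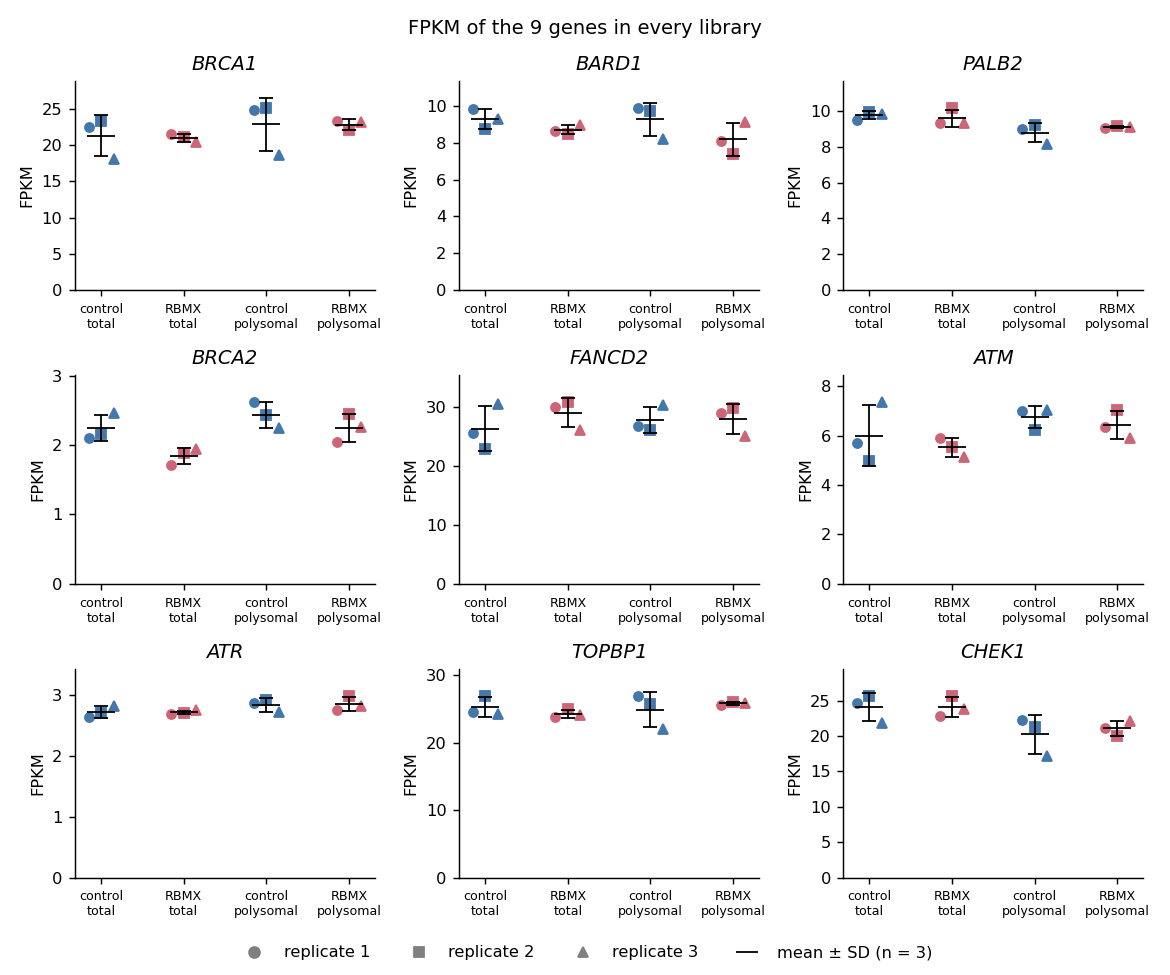
FPKM (vertical axes, each from 0) of the 9 genes in the 4 groups, with a circle, square or triangle for replicates 1, 2 and 3 and black bars for the mean ± SD (n = 3). The RBMX total libraries of BRCA2 sit at 1.71 to 1.94 FPKM, below the control total libraries at 2.10 to 2.46, while the other 8 genes overlap between vectors in both fractions.

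To ask whether the RBMX plasmid changed the RNA level of these genes, RBMX and control cells were compared in total RNA on the log2(FPKM + 1) scale with limma. Of the 9 genes, 0 passed an adjusted p of 0.05 over all genes tested, where 0.164% of all genes did. At an unadjusted p under 0.05 the count was 1 of 9, against 18.8% of all genes. The lone gene was BRCA2, which acts downstream of PALB2. It had 2.10, 2.16 and 2.46 FPKM in control and 1.71, 1.88 and 1.94 FPKM in RBMX cells. Every RBMX library was below every control library. BRCA2 was thus the 1 of 9 genes whose groups did not overlap, in the lower direction, and of all genes 15.4% were lower and 11.9% higher without overlap. Its difference on the log2(FPKM + 1) scale was -0.19 (SE 0.064, 95% interval -0.35 to -0.03, limma adjusted p = 0.225), which is -17.7% in mean FPKM. The two-sided exact permutation p was 0.1, the smallest that 3 against 3 libraries allow. Without control replicate 3 the difference was -0.14 and the adjusted p 0.191.

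The partners of BRCA2 in recombination overlapped between vectors. BRCA1, the ligase subunit that directs repair towards recombination, had 22.5, 23.4 and 18.1 FPKM in control and 21.5, 21.1 and 20.4 FPKM in RBMX total RNA. Control replicate 3 was its lowest library, and the difference of -0.01 (SE 0.10) became -0.12 without it. BARD1, which binds BRCA1 through its RING domain, had 9.82, 8.75 and 9.29 against 8.63, 8.50 and 8.98 FPKM, a difference of -0.08 (SE 0.063, adjusted p = 0.512). PALB2 differed by -0.02 (SE 0.059), from 9.76 ± 0.227 to 9.59 ± 0.481 FPKM (SD, n = 3). FANCD2, the monoubiquitinated component of the Fanconi anaemia pathway, had the largest positive difference, 0.14 (SE 0.12, adjusted p = 0.556), with 25.6, 22.9 and 30.4 FPKM in control and 30.0, 30.8 and 26.2 FPKM in RBMX cells. Here the third library of each vector lay apart from the other pair, in opposite directions, and without control replicate 3 the difference was 0.25.

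Among the checkpoint genes ATR was the most stable. It had 2.64, 2.71 and 2.83 FPKM in control and 2.69, 2.71 and 2.75 FPKM in RBMX total RNA, a difference of 0.00 within an interval of -0.12 to 0.11. ATM had 5.69, 4.95 and 7.35 against 5.90, 5.53 and 5.14 FPKM, and its difference of -0.09 (SE 0.14) turned to 0.05 without control replicate 3, its highest library. TOPBP1 differed by -0.05 (SE 0.061). CHEK1, the effector kinase of ATR, had 24.0 ± 1.97 FPKM in control and 24.1 ± 1.44 FPKM in RBMX cells (SD, n = 3), a difference of 0.00 within an interval of -0.20 to 0.21 that became -0.06 without control replicate 3. A p that misses the threshold does not show equal levels, and the intervals of the 9 genes allow differences of up to -0.43 (ATM) and 0.45 (FANCD2).

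In polysomal RNA 0 of 9 genes passed the adjusted threshold, where 0.0477% of all genes did, and 0 of 9 had an unadjusted p under 0.05 against 11.7% of all genes. The groups overlapped for all 9, while of all genes 10.0% were higher and 12.5% lower without overlap. BARD1 had the largest difference, -0.16 (SE 0.11, limma adjusted p = 0.563), with 9.87, 9.72 and 8.23 FPKM in control and 8.09, 7.37 and 9.12 FPKM in RBMX cells. The third replicate again crossed over in both vectors, and without control replicate 3 the difference was -0.24 (adjusted p = 0.298). BRCA2 had 2.62, 2.43 and 2.24 against 2.04, 2.45 and 2.26 FPKM, a difference of -0.08 (SE 0.075, adjusted p = 0.658). Its RBMX libraries lay within or below the control range. The other 7 genes differed by -0.06 (ATM) to 0.06 (CHEK1), and BRCA1, ATR, TOPBP1 and CHEK1 changed sign without control replicate 3.

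The RBMX effect was not shown to differ between fractions. This was tested in a fit over all 12 libraries with the interaction of vector and fraction. The fit had no term for the culture, so its intervals do not use the pairing described below. In it 0 of 9 genes passed, where 0.0204% of all genes did. At an unadjusted p under 0.05 there were 0 of 9, against 0.600% of all genes. With the culture as a block no call of the 9 genes changed. The effect in polysomal RNA minus that in total RNA ran from -0.14 (FANCD2, SE 0.16) to 0.11 (TOPBP1, SE 0.11). For BRCA2 it was 0.11 (SE 0.10, 95% interval -0.12 to 0.33), and without control replicate 3 it was 0.02.

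**Figure D2:**
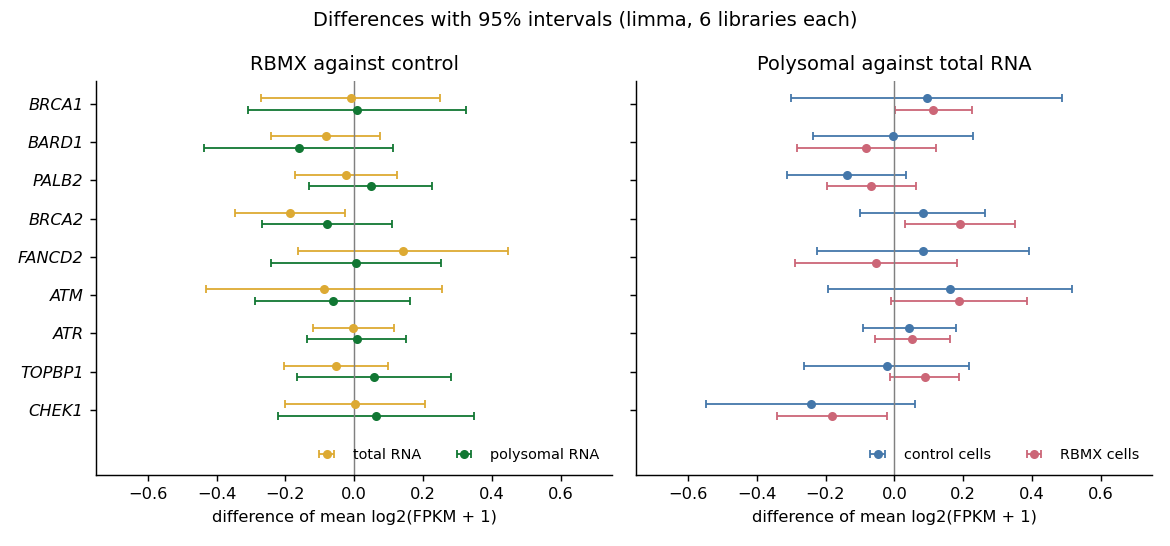
Difference of mean log2(FPKM + 1) for each of the 9 genes with limma's 95% interval (6 libraries each), RBMX minus control on the left and polysomal minus total RNA on the right. Of the intervals on the left, that of BRCA2 in total RNA, -0.35 to -0.03, lies away from 0, and on the right so do those of BRCA1, BRCA2 and CHEK1 in RBMX cells.

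FPKM ratios of partner genes within a library were compared as well, 4 ratios in 2 vectors and 2 fractions, each with a two-sided exact permutation test over samples whose smallest possible p is 0.1. BRCA2 to PALB2, which bind each other directly, had ratios of 0.221, 0.217 and 0.250 in control and 0.184, 0.185 and 0.208 in RBMX total RNA. All 3 RBMX libraries were lower (exact permutation p = 0.1). In polysomal RNA the ratio was 0.277 ± 0.0129 in control and 0.247 ± 0.0206 in RBMX cells (SD, n = 3), which overlapped (exact permutation p = 0.2).

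ATR to ATRIP, the subunit that recruits ATR to single-stranded DNA, was lower in RBMX cells in both fractions without overlap. It went from 0.442, 0.489 and 0.532 to 0.382, 0.371 and 0.425 in total RNA, and from 0.556, 0.569 and 0.620 to 0.434, 0.459 and 0.536 in polysomal RNA (exact permutation p = 0.1 in each). ATRIP carried this difference. Its level was 5.61 ± 0.330 FPKM in control and 6.95 ± 0.433 FPKM in RBMX total RNA (SD, n = 3), a difference of 0.26 (SE 0.071, limma adjusted p = 0.183) without overlap, and 4.90 ± 0.447 and 6.05 ± 0.670 FPKM in polysomal RNA, 0.25 (SE 0.11, adjusted p = 0.425). ATRIP shares its locus with TREX1, which averaged 1.50 FPKM, and how reads were split between them is not given in the sources used here. BRCA1 to BARD1 was 2.30 ± 0.365 in control and 2.42 ± 0.124 in RBMX total RNA, and 2.46 ± 0.165 and 2.80 ± 0.235 in polysomal RNA (SD, n = 3). These groups overlapped, as did those of ATR to ATM.

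Polysomal and total RNA were then compared within each vector, to ask which of these mRNAs were over- or under-represented among ribosome-loaded mRNA. In control cells 0 of 9 genes passed the adjusted threshold, where 0.0818% of all genes did, and 0 of 9 had an unadjusted p under 0.05 against 8.04% of all genes. PALB2 was the 1 gene without overlap. It had 9.51, 9.94 and 9.85 FPKM in total and 9.01, 9.19 and 8.16 FPKM in polysomal RNA, all lower, where of all genes 7.31% were lower and 7.63% higher without overlap. The difference was -0.14 (SE 0.069, limma adjusted p = 0.672). CHEK1 had 24.6, 25.7 and 21.8 against 22.3, 21.3 and 17.2 FPKM. Its groups overlapped through control replicate 3, with a difference of -0.24 (SE 0.12, adjusted p = 0.674). In control replicates 1 and 2 alone, BRCA1, BRCA2, FANCD2, ATM and ATR were higher in polysomal RNA without overlap, and PALB2 and CHEK1 lower. BRCA2 there had 2.10 and 2.16 FPKM in total against 2.62 and 2.43 FPKM in polysomal RNA. BARD1 and TOPBP1 overlapped, and the share of all genes was not counted for these replicates alone.

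Over all replicates, more of the genes separated by fraction in RBMX than in control cells, as more of all genes did. Without control replicate 3 most of the 9 genes separated in control cells too. Groups of 2 libraries separate more readily than groups of 3, so this does not show whether the contrast rests on that replicate. In RBMX cells 0 of 9 passed the adjusted threshold, where 1.34% of all genes did. At an unadjusted p under 0.05 there were 3 of 9 (BRCA1, BRCA2 and CHEK1) against 23.0% of all genes. Higher in polysomal RNA without overlap were 5 of 9 (BRCA1, BRCA2, ATM, ATR and TOPBP1) against 14.6% of all genes, and lower without overlap were 2 of 9 (PALB2 and CHEK1) against 16.2%. BRCA2 had 1.71, 1.88 and 1.94 FPKM in total and 2.04, 2.45 and 2.26 FPKM in polysomal RNA. It was 0.19 higher on the log2(FPKM + 1) scale (SE 0.064, limma adjusted p = 0.175) and 21.9% higher in mean FPKM. ATM had 5.90, 5.53 and 5.14 against 6.36, 7.03 and 5.91 FPKM, a difference of 0.19 (SE 0.079, adjusted p = 0.235). CHEK1 had 22.8, 25.6 and 23.8 against 21.2, 20.0 and 22.1 FPKM, a difference of -0.18 (SE 0.064, adjusted p = 0.185). Without RBMX replicate 2 the difference of CHEK1 was -0.10, that of BRCA2 0.16 and that of ATM 0.13. CHEK1 had the lowest of the 9 differences in both vectors, while ATM had the highest in control and BRCA2 and ATM the highest pair in RBMX cells.

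The methods describe total RNA as pooled from the gradient that gave the polysomal RNA, although the labels also mention separate dishes. Taking the libraries of 1 number and vector as 1 culture, both vectors were also fitted together with the culture as a block, over 12 libraries from 6 cultures. This fit was added after seeing the data, and its calls rest on that pairing. Across genes other than small RNAs, the deviations of total and polysomal library had a Pearson r of 0.222 in RBMX culture 1. In RBMX culture 2 it was 0.0198. Control and RBMX libraries that share only a number reached 0.340, so RBMX cultures 1 and 2 gave no sign of the pairing beyond that. It called 2 of 9 genes, or 22.2%, against 23.9% of all genes tested, a share near the background. BRCA1 was higher in polysomal RNA by 0.10 (SE 0.027, limma adjusted p = 0.0370), in 6 of 6 cultures, by 0.05 to 0.17. CHEK1 was lower in 6 of 6 cultures, from -0.34 to -0.10, with a mean difference of -0.21 (SE 0.045, adjusted p = 0.0225). PALB2 was also lower in 6 of 6 cultures but did not pass (-0.10, SE 0.035, adjusted p = 0.0749). For each of these 3 genes the two-sided exact permutation test over the signs of the 6 cultures gave p = 0.0312, the smallest it can give. How many of all genes had 1 direction in all 6 cultures was not counted. The agreement of these 3 genes is therefore not set apart from the background.

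ATM and BRCA2 were higher in 5 of 6 cultures, with differences of 0.17 (SE 0.053, adjusted p = 0.0544) and 0.14 (SE 0.050, adjusted p = 0.0869). Control culture 3 was the exception for both, at -0.06 for ATM and -0.09 for BRCA2. Without that culture both passed, BRCA2 at 0.18 (adjusted p = 0.0221) and ATM at 0.22 (adjusted p = 0.0236), which made 4 of 9 genes against 20.8% of all genes. The calls rest on few cultures. Without control culture 1, control culture 2 or RBMX culture 3 the count was 0 of 9, where 1115, 1292 and 839 of the 14676 genes passed in place of 3512, and without RBMX culture 1 it was 1 of 9, where 1882 did. The adjusted p ranged from 0.0298 to 0.107 for BRCA1 and from 0.0216 to 0.0628 for CHEK1 over 8 alternatives. TOPBP1, FANCD2, ATR and BARD1 did not pass, with differences of -0.04 (BARD1) to 0.05 (ATR).

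**Figure D3:**
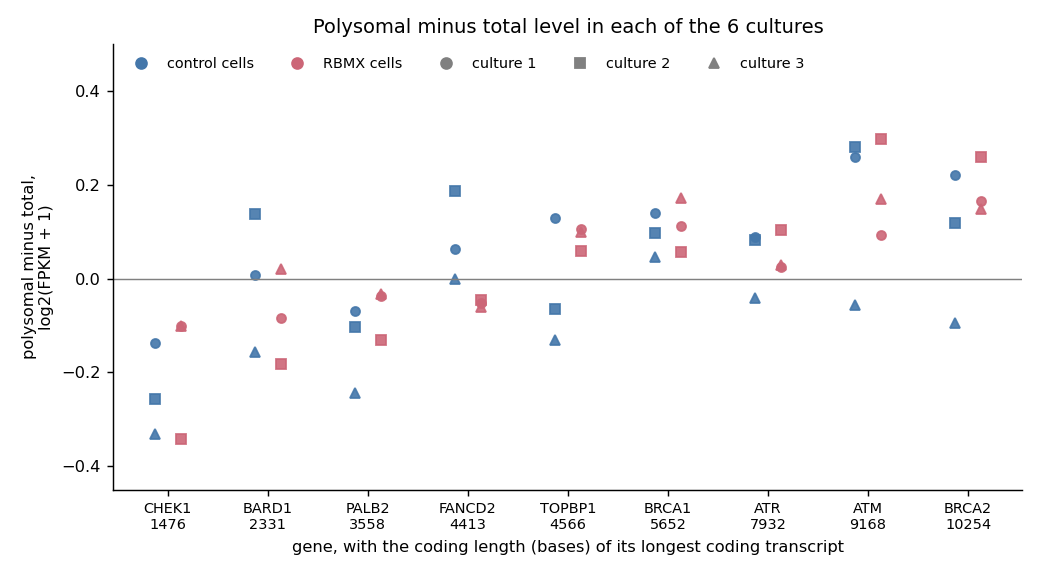
Polysomal minus total level on the log2(FPKM + 1) scale for each gene in each of the 6 cultures, with genes ordered from the shortest to the longest coding region. CHEK1 and PALB2 lie below 0 in all 6 cultures and BRCA1 above 0 in all 6, while control culture 3 (blue triangles) lies below 0 for ATR, ATM and BRCA2.

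The polysomal differences broadly followed coding length. These were read by symbol from the longest coding transcript in GENCODE v29, from 1476 bases in CHEK1, 2331 in BARD1, 3558 in PALB2, 4413 in FANCD2 and 4566 in TOPBP1 to 5652 in BRCA1, 7932 in ATR, 9168 in ATM and 10254 in BRCA2. The 4 longest had a positive mean polysomal difference in both vectors, while CHEK1, BARD1 and PALB2 had a negative one in both. BARD1 in control cells was the exception without control replicate 3, at 0.07. Across the 9 genes the Spearman correlation of the difference with coding length was 0.70 in control and 0.95 in RBMX cells, where the genes share libraries and are not independent replicates. The same direction was seen across 12499 genes with a coding length, with a Spearman correlation of 0.239 in control and 0.457 in RBMX cells. The 139 genes with at least 8000 coding bases had a median difference of 0.14 in control and 0.27 in RBMX cells, and the 3830 genes under 1000 bases one of -0.01 and -0.07.

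Set against genes of like length, 7 of the 9 genes in control and 9 of 9 in RBMX cells were below the middle of their class. These places are on the log2(FPKM + 1) scale, and the classes were not matched for level. That scale understates changes of low genes such as BRCA2 and ATR, so their places may be too low. In mean FPKM, BRCA2 was 21.9% higher in polysomal than in total RNA of RBMX cells. CHEK1 was above 5.76% of the 4899 genes with 1000 to 2000 coding bases in control and above 13.5% in RBMX cells. PALB2 was above 2.88% and 6.74% of the 1216 genes with 3000 to 5000 bases. BRCA2 was above 19.4% and 28.8% of the 139 longest genes, and ATR above 19.9% and 8.67% of the 392 genes with 5000 to 8000 bases. FANCD2 was above 53.7% of its length class in control cells but 7.65% in RBMX cells. The trend over all genes varied by culture, with a Spearman correlation of 0.0362 in control culture 3 and 0.506 in RBMX culture 2 as the extremes, and it was above 0.24 in the other 4. Genes with at least 5000 coding bases had a median difference of 0.418 in RBMX culture 2. In RBMX cultures 1 and 3 it was 0.128 and 0.168, so the RBMX medians lean on culture 2. What gave rise to the trend was not tested.

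**Figure D4:**
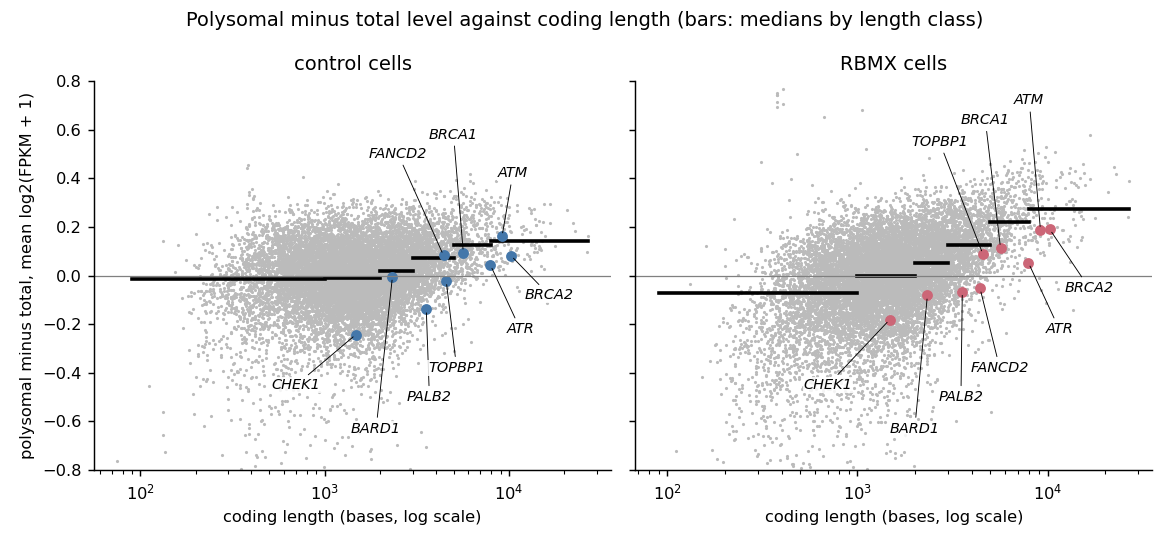
Polysomal minus total level (mean log2(FPKM + 1)) against coding length on a log axis for 12499 genes in grey, with the 9 genes in colour and black bars for the median of each length class. The medians rise from -0.01 to 0.14 in control and from -0.07 to 0.27 in RBMX cells, CHEK1 is the lowest of the 9 in both panels, and 46 and 96 genes lie outside the axis.

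For the rest of the pathway 6 gene lists were read, of 103 genes that do not include the 9. In RBMX against control 0 of the 103 passed the adjusted threshold in total or in polysomal RNA, where 0.164% and 0.0477% of all genes did. The median difference in total RNA was -0.02 for the 9 genes and 0.00 for all genes tested. It was 0.02 for 31 homologous recombination genes, which ran from -0.29 for RMI1, a subunit of the complex that dissolves recombination intermediates, to 0.35 for RAD54L, a DNA translocase of recombination. RAD54L had 25.6, 23.9 and 25.0 FPKM in control and 35.1, 33.6 and 27.3 FPKM in RBMX cells, without overlap (limma adjusted p = 0.196). TOP3A, the topoisomerase of the same complex as RMI1, was highest in polysomal RNA, with 0.35 (SE 0.089, adjusted p = 0.400), and SHFM1, a small partner of BRCA2, was lowest, with -0.50 (SE 0.23, adjusted p = 0.430).

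The 20 damage checkpoint genes had a median of 0.13 in both fractions, from ETAA1, a second activator of ATR, at -0.28 to CDC25A, the phosphatase that CHEK1 restrains, at 0.31 in total RNA. That median was 0.02 in total and 0.01 in polysomal RNA without control replicate 3. CDC25A had 26.0, 28.0 and 19.7 FPKM in control and 30.1, 30.5 and 30.4 FPKM in RBMX total RNA, where control replicate 3 is the lowest. The 9 end joining genes had a median of 0.12 in total RNA, and it turned to -0.10 without control replicate 3. XRCC6, a subunit of the Ku complex, had 345, 355 and 154 FPKM in control against 362, 362 and 352 FPKM in RBMX total RNA.

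The 13 Fanconi anaemia genes had a median of 0.08 in total and 0.03 in polysomal RNA, between FANCF, an adaptor of the core complex, and WDR48, a partner of the deubiquitinase of FANCD2. The 14 p53 target genes had medians of 0.07 and 0.05. At their ends stood ZMAT3, a zinc finger protein, with -0.49 in total RNA (SE 0.14, adjusted p = 0.195), and FAS, the death receptor, with 0.32 (SE 0.12, adjusted p = 0.238). The 16 proliferation genes had medians of 0.04 and 0.05. At an unadjusted p under 0.05 in total RNA there were 6 of 31 recombination, 3 of 20 checkpoint, 3 of 13 Fanconi anaemia, 0 of 9 end joining, 6 of 14 p53 target and 1 of 16 proliferation genes, against 18.8% of all genes. In polysomal RNA the counts were 1, 1, 1, 1, 2 and 0 in the same order, against 11.7% of all genes.

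**Figure D5:**
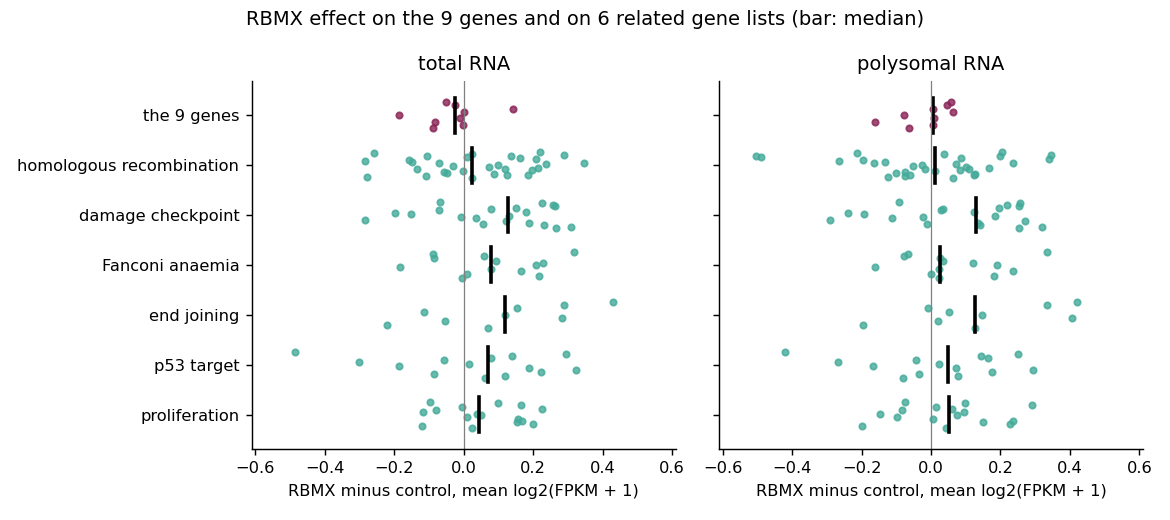
RBMX minus control on the log2(FPKM + 1) scale for the 9 genes (purple) and the genes of the 6 lists (green) in total and polysomal RNA, with a black bar at each median. The 9 genes run from -0.19 to 0.14 in total RNA, a narrower range than that of the 31 recombination genes, -0.29 to 0.35.

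In the fit of polysomal against total RNA with both vectors, 4 of 31 recombination genes passed, RAD50 and SLX4 higher and RAD51C and RAD52 lower. Of the 20 checkpoint genes 8 passed. The higher ones were MDC1, the large scaffold that reads marked chromatin (0.33, SE 0.069, limma adjusted p = 0.0223), CLSPN, TIMELESS, TP53BP1, H2AFX and RNF168, and the lower ones were ATRIP (-0.17, SE 0.031, adjusted p = 0.0160) and RAD17. In end joining 4 of 9 passed, PRKDC, PARP1 and POLQ higher and LIG4 lower, and in the Fanconi anaemia list 1 of 13, FANCB, which was lower. In the p53 target list it was 3 of 14, XPC higher and GADD45A and PPM1D lower, and in the proliferation list 1 of 16, MKI67, which was higher. All these stand against 23.9% of all genes. That share was far lower without control culture 1, control culture 2 or RBMX culture 3. The list counts without those cultures were not taken, so the calls named here may not hold there. Without control culture 3 the counts were 5 of 31 recombination, 2 of 14 p53 target and 0 of 16 proliferation genes, so that MKI67 no longer passed, against 20.8% of all genes, and the counts of the other 3 lists were as before.

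The profile of each gene over the 12 libraries was also set beside that of the others, where libraries of one culture may share a lysate. PALB2 and CHEK1 were closest, with a Pearson r of 0.86, followed by BRCA1 and TOPBP1 with 0.79 and BRCA2 and ATR with 0.73. ATM and CHEK1 ran most against each other, with -0.75. Outside the 9, the genes most like BRCA2 were MED12L, a subunit of the Mediator kinase module (r = 0.94), ZNF652, a zinc finger repressor (0.94), and ACVR2B, an activin receptor (0.93). Most like the mean profile of the 9 were NPAT (0.91), the histone gene activator, TRIM33 (0.90) and EDEM3 (0.86).

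NPAT also starts 429 bases from ATM on the other strand. In RefSeq on GRCh38.p14, genes with a start within 1000 bases on the other strand and a value here were found for BRCA1 (NBR2, and NBR1 beside an alternative start upstream of the main one), PALB2 (DCTN5), BRCA2 (ZAR1L), ATM (NPAT) and TOPBP1 (TF). ATM and NPAT had means of 6.18 and 6.42 FPKM and a Pearson r of 0.40 over the 12 libraries. BRCA1 and NBR1 had 22.0 and 38.4 FPKM and an r of 0.93, with control replicate 3 low in both, and BRCA1 and NBR2 had an r of -0.76. ZAR1L beside BRCA2 averaged 0.125 FPKM and TF beside TOPBP1 0.094 FPKM. The BRCA1 span also overlaps NBR2 and the long noncoding gene LOC101929767, which averaged 9.34 FPKM, and a pseudogene copy of its first part. That of ATM overlaps C11orf65, with 1.04 FPKM, and FANCD2 has the pseudogenes FANCD2P1 and FANCD2P2. Reads of overlapping genes or copies could not be told apart here, since the handling of strand is not given in the sources used here.

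The promoters of the 9 genes were read from RefSeq on GRCh38.p14 by symbol, from 250 bases before to 50 after each start, and gave 13 promoters for the 9 genes. They were searched on both strands for the letters of factors of the cell cycle and of housekeeping promoters. The E2F letters TTTCCCGC, TTTGGCGC, TTTGCCGC and TTTCGCGC were in FANCD2 and TOPBP1, and in 3.31% of all 35116 promoters. The ETS letters CCGGAAG were in PALB2, BRCA2, FANCD2, ATM and ATR, and in 10.3% of promoters. CCAAT was in BRCA1, PALB2, ATM and CHEK1, and in 34.6% of promoters, the CHR letters TTTGAA were in ATM and in 15.2%, and the palindromic motif of NRF1 was in none of the 13 and in 1.24%. Counted by promoter, as the shares of all promoters are, the matches were 2 of 13 for E2F, 5 for ETS, 7 for CCAAT and 1 for CHR. BARD1 matched none of these motifs. Below are 30-base windows of the E2F matches and of 1 ETS match each in BRCA2, ATM and ATR, the 3 lowest genes of the set (for ATR, which has 2, the one nearer its start), on the strand of the gene with the matched letters in capitals. FANCD2 and TOPBP1 show the reverse complement of their letters, as do BRCA2 and ATR.
FANCD2, E2F, chr3:10026424-10026453, plus strand: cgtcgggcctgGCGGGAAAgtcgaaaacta
TOPBP1, E2F, chr3:133661930-133661959, minus strand: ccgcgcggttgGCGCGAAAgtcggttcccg
BRCA2, ETS, chr13:32315409-32315438, plus strand: cccaggcctgaCTTCCGGgtggtgcgtgtg
ATM, ETS, chr11:108223042-108223071, plus strand: cagggtttgaaCCGGAAGcgggagtaggta
ATR, ETS, chr3:142578760-142578789, minus strand: ggcgccgcgctCTTCCGGcagcggtagctt
Whether these letters bear on the RBMX comparison was not tested, and none of the genes that hold them passed its adjusted threshold. FANCD2 and TOPBP1, which share E2F letters, differed by 0.14 and -0.05 in total RNA, and BRCA2, ATM, PALB2, ATR and FANCD2, which share ETS letters, by -0.19, -0.09, -0.02, 0.00 and 0.14.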

How the data were processed

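Total and polysomal RNA of HEK293 cells with the RBMX plasmid or the empty vector were sequenced with a TruSeq kit from 500 ng of RNA, 3 libraries for each of 4 groups. The authors deposited FPKM values per gene symbol. The submitters' processing notes name CASAVA 1.8, TopHat2 2.0.13, Cufflinks 2.2.1, Cuffnorm and hg19, whereas the methods of the study describe hg38 for its reads, and the annotation behind the FPKM values is not given in the sources used here. FPKM keeps no read number, so depth is unknown. Among values up to 0.05 FPKM, 11.5% to 23.5% of genes shared one step per library, too few to recover reads. All columns matched a sample by its description (0 unmatched).

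The 14676 genes with a mean of at least 0.5 FPKM over the 12 libraries, all 9 genes included, were tested on log2(FPKM + 1), a scale that understates changes of low genes, with limma 3.58.1 in R 4.3.3 (lmFit, eBayes with trend), two-sided, with Benjamini-Hochberg adjustment over all genes and a threshold of 0.05. Each comparison used its own 6 libraries, and the interaction all 12. No count model was applied. Single values were compared by exact permutation over samples. Python 3.11.15 and matplotlib 3.10.9 made the plots. Coding lengths came from GENCODE 29 (GRCh38) for 85.2% of the genes tested.

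The 9 genes and the lists were chosen with earlier results of these data known. Named are the 9 genes, RBMX, ratio partners, list genes past the threshold (or the lowest and highest per list), the 3 closest profiles and opposite-strand neighbours. RAD54L, CDC25A and XRCC6 values were shown because they stood at the ends of their lists, while TREX1, LOC101929767 and C11orf65 were named for their overlap.

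Total and polysomal RNA of one culture were treated as paired because total RNA was pooled from the same gradient, although the labels also mention separate dishes for them. Over genes other than small RNAs, the deviation of a culture's total library from its group mean had a Pearson r with that of its polysomal library of 0.605, 0.686 and 0.835 in control and 0.222, 0.0198 and 0.654 in RBMX cultures 1 to 3. Control and RBMX cultures share only a number (-0.17 to 0.34).

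The fits were tested on simulated data with 200 of 14676 genes changed. By comparison, 67% to 76% of genes changed by 1 and 90% to 97% of those changed by 2 on the log2 scale were recovered. Differences as small as -0.24 (CHEK1, polysomal against total RNA in control cells) or -0.19 (BRCA2, RBMX against control in total RNA) were not simulated. The recovered shares therefore do not give the power for changes of that size. With no gene changed, 5.01% of genes in the simulated interaction had an unadjusted p under 0.05, against 0.600% in the real data. The simulation thus did not match the real interaction fit. Alternatives were a pseudocount of 0.1, no filter or a minimum of 1 FPKM, median-ratio rescaling, no trend, a replicate block, one fit of all 12 libraries, and leaving out every replicate in turn. The fit of both vectors with its alternatives, and the checks that omit small RNAs, were chosen after seeing the data.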

Additional observations from a re-analysis of the deposited data

How the results depend on the processing

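Read numbers are unknown, and 3 libraries per group limit what can be detected, so the intervals rather than the missed thresholds bound the size of an effect. The number of the 9 genes called was 0 in each of the 5 planned comparisons under every alternative run. Of 594 alternative values for the single genes, 555 kept their direction and their side of the threshold, 29 reversed, 3 gained and 7 lost the threshold. BRCA2 in total RNA stayed negative under all 13 alternatives, from -0.27 with a pseudocount of 0.1 to -0.14 without control replicate 3, with adjusted p from 0.191 to 0.575.

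The count over all genes was 24 in total RNA, against 77 without a filter, 60 with all 12 libraries in one fit and 19 to 178 with 1 replicate left out. In polysomal RNA it was 7, against 31, 22 and 9 to 126. For polysomal against total RNA it was 12 in control cells, against 41 with all 12 libraries and 13 to 199 with 1 replicate left out, and 196 in RBMX cells, against 61 without a filter, 21 with all 12 libraries and 21 to 23. For the interaction it was 3, against 4 to 7 with 1 replicate left out. With the replicate number as a block, the paired counts were 6 in control and 4 in RBMX cells for polysomal against total RNA, 5 for the interaction, and, where numbers do not pair the cultures, 13 and 3 for RBMX against control. The block changed no call of the 9 genes. With both vectors and 1 culture left out, 839 to 3117 of all genes and 0 to 4 of the 9 genes were called, against 3512 and 2. ATM there was 0.20 and passed with a pseudocount of 0.1.

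With 1 replicate left out the list medians in total RNA ran from 0.021 to 0.17 (damage checkpoint), -0.10 to 0.13 (end joining), -3.21e-05 to 0.070 (homologous recombination) and 0.045 to 0.11 (p53 targets), and in polysomal RNA from 0.013 to 0.14 (damage checkpoint). ATR in total RNA reversed under median-ratio rescaling (0.000217). The single genes that reversed when 1 replicate was left out ranged, for RBMX against control in total RNA, from -0.12 to 0.057 (BRCA1), -0.20 to 0.046 (ATM), -0.020 to 0.017 (ATR) and -0.063 to 0.048 (CHEK1). In polysomal RNA they ranged from -0.13 to 0.077 (BRCA1), -0.042 to 0.079 (FANCD2), -0.018 to 0.026 (ATR), -0.024 to 0.12 (TOPBP1) and -0.046 to 0.13 (CHEK1). For polysomal against total RNA in control cells they ranged from -0.075 to 0.072 (BARD1) and -0.098 to 0.032 (TOPBP1), with both vectors from -0.020 to 0.030 (FANCD2), and for the interaction from -0.010 to 0.048 (BRCA1), -0.083 to 0.085 (ATM) and -0.034 to 0.032 (ATR). The cause was not tested.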
